A study of Homo sapiens with 9 samples.

Results

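ZEB1 peaks were compared between 2 unmodified human cell lines, MiaPaCa2 from a pancreatic ductal adenocarcinoma and RKO from a colon carcinoma. The members were all peaks of the 2 deposited ZEB1 lists, 4804 in MiaPaCa2 and 7193 in RKO. They made up 11997 of the 47426 peaks in the 5 lists used here. Both lines were untreated and grown in different media. In each, chromatin was fixed with 1% formaldehyde for 10 min and precipitated with 10 µg of the same ZEB1 antibody, of a different lot for each line. Lists of 2 single-cell clones of MiaPaCa2 were read beside them: a WT clone, from cells electroporated with Cas9 nickase plasmids, and a delta-Repeat clone, for which guide RNAs targeting tandem repeats before the MIR200A and MIR200B genes were added. Each clone is 1 isolate, and both shared another antibody lot. A CTCF list of unmodified MiaPaCa2 cells was also read.

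There was 1 library for each line, so the differences below have no replicate error beside them, and no test of the difference between lines was possible. The line, the antibody lot and the library cannot be told apart. Intervals in brackets are exact Clopper-Pearson 95% intervals and cover counting error only. The peaks in them are not independent, since neighbours share chromatin and reads. Read depth was unknown from the lists, and the identity of the lines was not checked, since a peak list holds no expression of marker genes.

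ZEB1, a transcription factor with zinc fingers, binds E-box sequences and represses epithelial genes, among them the gene of the adhesion protein E-cadherin. It drives the epithelial-to-mesenchymal transition, in which cells of an epithelium lose their junctions and become motile. ZEB1 and the microRNAs of the miR-200 family repress each other, a loop in which either state of the cell can be held.

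A joint locus was a connected group of peaks of both lists that overlapped by at least 1 bp. There were 2684 joint loci, made of 2756 MiaPaCa2 and 2810 RKO peaks. Positions refer to hg19, the build of the deposited files, with the first base as 1. Joint peaks had a median fold enrichment of 7.61 in MiaPaCa2 and 7.56 in RKO, against 5.90 and 5.55 for the 2048 MiaPaCa2 and 4383 RKO peaks without a counterpart. The latter were 42.6% of the MiaPaCa2 list and 60.9% of the longer RKO list. With the RKO list shortened to its 4804 peaks of highest −log10 q, 2446 MiaPaCa2 and 2447 RKO peaks had no counterpart. Fold here is the linear enrichment at the peak's summit over the background that the authors' peak caller estimated, as deposited. It depends on the depth and control of its library. For this reason each locus was given 2 ranks, one by its strongest MiaPaCa2 peak and one by its strongest RKO peak, both running from 1 (strongest) to the number of joint loci. Loci with the same fold share the better rank.

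The best 50 loci of each order had 27 in common. The 5 loci described next were picked by best summed rank, so their high place in both orders came from that choice. The joint locus of best summed rank lay on chromosome 1 from 1057959 to 1060332, where MiaPaCa2 had a fold of 105 (rank 2) and RKO one of 108 (rank 1). Next came chromosome 16 from 90096986 to 90100753, with folds of 115 (rank 1) and 106 (rank 2). A locus on chromosome 13 from 114318813 to 114321438 had folds of 62.4 (rank 5) and 56.3 (rank 9). These 3 loci stood among the first 10 of both orders. A locus on chromosome 22 from 45125932 to 45128019 had ranks 13 and 3, and one on chromosome 19 from 11319220 to 11320300 had ranks 10 and 8. All 5 had a peak in the WT clone, and all but the chromosome 1 locus had one in the delta-Repeat clone.

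Over all joint loci the orders met in part. Each order was divided into 4 rank classes of 25% of the loci, with class 1 the strongest. Of the 675 loci in class 1 of MiaPaCa2, 401 (59.4%, 55.6 to 63.1) were also in class 1 of RKO and 33 (4.89%) were in its class 4. Class 2 of MiaPaCa2 was spread more evenly, with 24.0%, 30.4%, 24.9% and 20.7% of its 667 loci in classes 1 to 4 of RKO. In class 4 of MiaPaCa2, 43 of 669 loci (6.43%) were in class 1 of RKO. The best 100 loci of each order had 60 in common, and the best 10 had 4. Across the 2684 loci, Spearman's rho of the fold was 0.51 and Pearson's r of the log2 fold was 0.64. These are descriptions across loci of 1 pair of libraries, and loci are not replicates. The median difference between both ranks was 471 places.

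**Figure D1:**
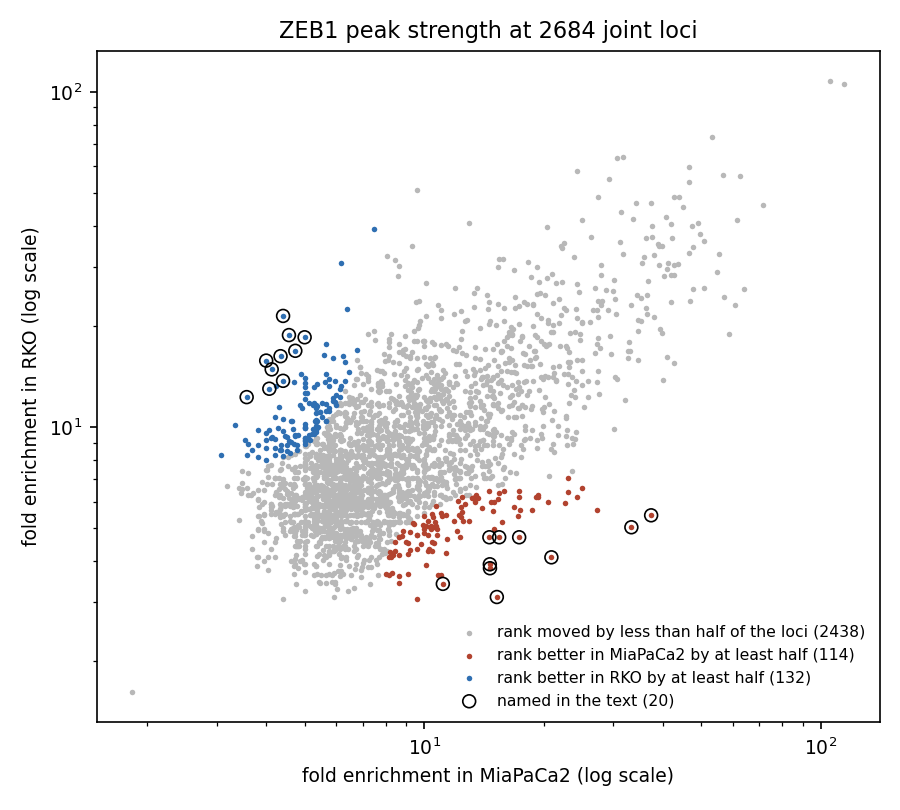
Fold enrichment of the strongest peak in MiaPaCa2 (x axis, log scale) and in RKO (y axis, log scale) at each of the 2684 joint loci, 1 point a locus. Red and blue points are the 114 and 132 loci whose rank moved by at least 50% of the number of loci, and circles the 20 loci described individually. Loci strong in both lines lie at the upper right.

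Some loci stood near the top in one line and near the bottom in the other. A move was counted where both ranks differed by at least 50% of the number of joint loci, that is by 1342 places. Of all 2684 loci, 114 (4.25%) ranked better by that much in MiaPaCa2 and 132 (4.92%) in RKO. These are counts in the comparison that chose the loci and support nothing by themselves. Just inside the threshold for MiaPaCa2 was a locus on chromosome 1 from 19979963 to 19980526 with ranks 705 and 2054 (folds 10.7 and 5.82). Just outside was one on chromosome 5 from 122371209 to 122372038 with ranks 901 and 2242 (folds 9.58 and 5.42). For RKO, the locus just inside lay on chromosome 17 from 26926136 to 26926451, with ranks 2463 and 1116, and the one just outside on chromosome 1 from 247241731 to 247242095, with ranks 2366 and 1027. Members and near-members thus differed little.

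The largest move toward MiaPaCa2 was on chromosome 5 from 141255855 to 141257203. The fold there was 20.9 in MiaPaCa2 (rank 190) and 4.09 in RKO (rank 2596), and the WT and delta-Repeat clones had 10.7 and 11.8. Both clones held a peak at this locus, whose low RKO fold came from the choice of the locus.
On chromosome 1 from 235097117 to 235098106, the fold was 15.2 in MiaPaCa2 (rank 369), 3.11 in RKO (rank 2680), 7.39 in the WT and 7.02 in the delta-Repeat clone. The RKO peak there was 201 bp wide, next to the 200 bp that is the smallest width in the list, and lay inside a MiaPaCa2 peak of 990 bp.
On chromosome 14 from 100149080 to 100150282, the fold was 33.3 in MiaPaCa2 (rank 69), 5.03 in RKO (rank 2361), 22.0 in the WT and 22.3 in the delta-Repeat clone. A CTCF peak of MiaPaCa2 with a fold of 16.9 overlapped this locus.
On chromosome 21 from 43185962 to 43188749, the fold was 37.4 in MiaPaCa2 (rank 52), 5.46 in RKO (rank 2210), 22.6 in the WT and 24.0 in the delta-Repeat clone. Of the 10 largest moves toward MiaPaCa2 this locus had the best MiaPaCa2 rank, and its MiaPaCa2 peak, at 2788 bp, was the widest of the whole list.

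The other 6 of the 10 largest moves toward MiaPaCa2 had MiaPaCa2 ranks from 279 to 651 and RKO ranks from 2472 to 2672. They lay on chromosome 5 (156692305 to 156693056), chromosome 2 (87034897 to 87035636), chromosome 13 (27997914 to 27998583), chromosome 7 (155949758 to 155950634) and, in 2 places, chromosome 14 (106003658 to 106004572 and 59950225 to 59950911). Of all 10, 8 had a peak in both clones. The exceptions were the chromosome 7 locus, in the WT clone only (fold 9.03), and that on chromosome 14 from 59950225, in the delta-Repeat clone only (fold 6.28). All 10 stood in class 1 of MiaPaCa2, and each clone list held 9 of them. Of all 675 joint loci in that class, the WT and delta-Repeat clone lists held 91.0% and 93.9%. A CTCF peak overlapped 5 of the 10, against 24.6% of the 114 loci that ranked better in MiaPaCa2 and 22.0% of all joint loci.

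The largest move toward RKO was on chromosome 16 from 728215 to 729386. The fold there was 4.41 in MiaPaCa2 (rank 2555) and 21.5 in RKO (rank 144), and neither clone had a peak. The RKO peak spanned 1172 bp and the MiaPaCa2 peak 265 bp.
On chromosome 16 from 81439184 to 81439641, the fold was 4.56 in MiaPaCa2 (rank 2536) and 18.8 in RKO (rank 192), again with no peak in either clone. The summits were 84 bp apart, and the widths, 409 and 458 bp, were close.
On chromosome 3 from 113666896 to 113667560, the fold was 4.0 in MiaPaCa2 (rank 2631), 15.8 in RKO (rank 294) and 6.28 in the WT clone, and the delta-Repeat clone had no peak. On chromosome 14 from 23527220 to 23527719, the fold was 4.34 in MiaPaCa2 (rank 2573) and 16.3 in RKO (rank 269), with no clone peak and a CTCF peak of fold 18.4. All 4 of these loci were therefore weak in MiaPaCa2 and weak or unlisted in its clones.
A locus on chromosome 2 from 74667774 to 74669409, with ranks 2610 and 326, had summits 1011 bp apart. One on chromosome 19 from 35738522 to 35740373, with ranks 2478 and 246, had summits 1022 bp apart. At these 2 loci the strongest point of the RKO peak lay well away from that of MiaPaCa2, so both peaks overlap without marking the same spot.
The remaining 4 were on chromosome 18 (29523322 to 29523762, ranks 2393 and 198), chromosome 3 (138312389 to 138313694, ranks 2622 and 464), chromosome 12 (70132056 to 70132492, ranks 2555 and 399) and chromosome 6 (30737105 to 30737511, ranks 2671 and 518). On chromosome 3 the summits were 503 bp apart at the locus from 138312389 and 223 bp apart at that from 113666896. Apart from these and the 2 loci above, the summits of the 10 lay 37 to 84 bp apart. Among the 10 largest moves toward RKO, 1 was in both clone lists and 5 were in neither. The WT clone list held 4 of these 10 and the delta-Repeat clone list 2. All 10 stood in class 4 of MiaPaCa2. Of all 669 joint loci in that class, the WT and delta-Repeat clone lists held 8.82% and 17.0%. A CTCF peak overlapped 3 of the 10 and 21.2% of all 132 loci that ranked better in RKO. None of the 20 loci reached, in both lists, a fold of 5 together with a −log10 q of 10, which is called the stricter threshold below.

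The clone lists were not used in choosing these loci. Of the 114 loci that ranked better in MiaPaCa2, the WT clone list held 71 (62.3%, 52.7 to 71.2) and the delta-Repeat clone list 85 (74.6%, 65.6 to 82.3). Of the 132 that ranked better in RKO, they held 16 (12.1%, 7.09 to 18.9) and 39 (29.5%, 21.9 to 38.1). Over all joint loci the shares were 41.5% (39.6 to 43.4) and 51.1% (49.2 to 53.0). All shares were higher with the stricter threshold: the WT and delta-Repeat clones then held 91.8% and 91.8% of 49 loci better in MiaPaCa2, 61.3% and 56.5% of 62 loci better in RKO, and 71.9% and 78.8% of all 1205 joint loci. Strength in MiaPaCa2 moves with these shares. Within its class 1, the WT clone held 84.7% (73.0 to 92.8) of the 59 loci that ranked better in MiaPaCa2 and 91.0% (88.5 to 93.0) of all 675 loci. Within its class 4, the WT clone held 9.65% (4.92 to 16.6) of the 114 loci that ranked better in RKO and 8.82% (6.78 to 11.2) of all 669. For the delta-Repeat clone the shares in class 4 were 29.8% (21.6 to 39.1) and 17.0% (14.3 to 20.1).

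**Figure D2:**
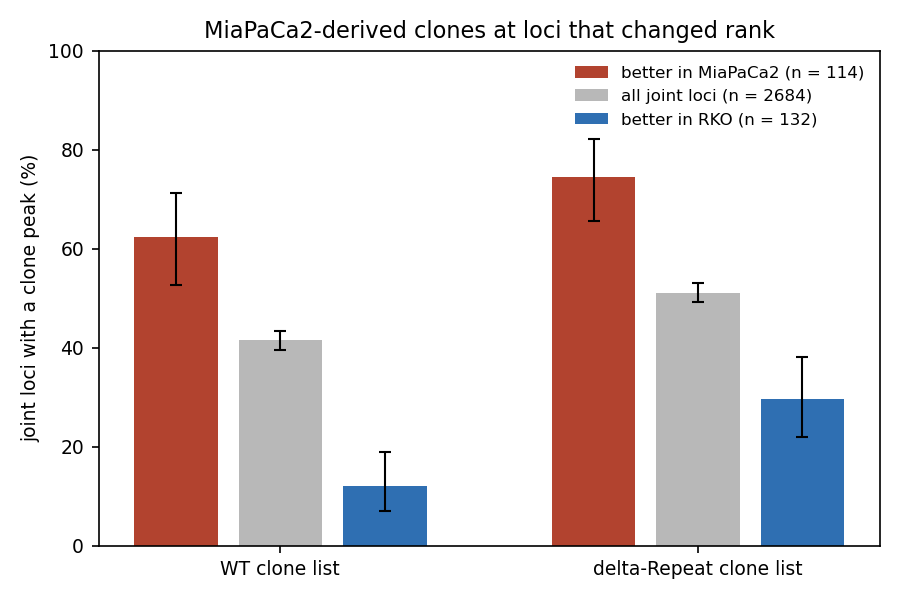
Share of joint loci with an overlapping peak in each clone list (y axis, %), for loci that ranked better in MiaPaCa2 (red), all joint loci (grey) and loci that ranked better in RKO (blue). Error bars are exact 95% intervals for counting error. In both clones the red bar is the highest (62.3% and 74.6%) and the blue bar the lowest (12.1% and 29.5%), with the lists as deposited. The groups were not matched for strength in MiaPaCa2, with which these shares move.

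At the 914 joint loci held by both clone lists, the order of the clones was nearer to MiaPaCa2 than to RKO. Spearman's rho of the WT clone fold was 0.76 with MiaPaCa2 and 0.48 with RKO, and for the delta-Repeat clone it was 0.72 and 0.49. Ranked anew within these loci, the WT clone stood closer to MiaPaCa2 at 578 of 908 loci without a tie (63.7%, 60.4 to 66.8) and the delta-Repeat clone at 557 of 907 (61.4%, 58.2 to 64.6). Where MiaPaCa2 and RKO differed by at least 50% of the 914 places in favour of RKO, the WT clone stood closer to MiaPaCa2 at 29 of 34 loci and the delta-Repeat clone at 27 of 34. For differences of that size in favour of MiaPaCa2, the counts were 30 of 34 and 23 of 34. The clones and the MiaPaCa2 line share an origin, and both clones share an antibody lot that neither line had.

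Peak widths were alike over the whole set and followed strength at single loci. At the 2503 loci with 1 peak in each list, the median width was 460 bp in MiaPaCa2 and 442 bp in RKO. The RKO peak was the wider at 1223 of them (48.9%, 46.9 to 50.8), while with the stricter threshold it was the wider at 42.8% (39.9 to 45.7). Both widths lay within a factor of 2 of each other at 2093 loci (83.6%). The RKO peak was more than 2 times wider at 218 loci and the MiaPaCa2 peak at 192. Spearman's rho between both widths was 0.48. Between fold and width it was 0.69 in MiaPaCa2 and 0.61 in RKO, and between the log2 ratios of fold and of width (RKO over MiaPaCa2) it was 0.47. Of the 112 such loci that ranked better in MiaPaCa2, the MiaPaCa2 peak was the wider at 102, with medians of 637.5 bp in MiaPaCa2 and 329.5 bp in RKO. Of the 130 that ranked better in RKO, the RKO peak was the wider at 116, with medians of 330.5 and 575.5 bp.

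**Figure D3:**
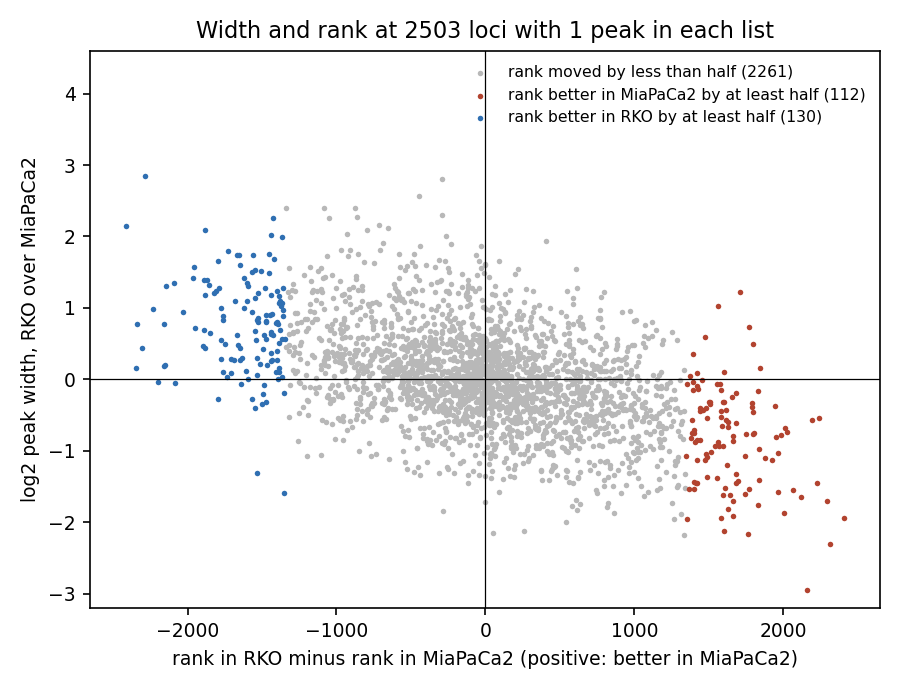
Rank in RKO minus rank in MiaPaCa2 (x axis, places, positive where MiaPaCa2 ranks better) against the log2 ratio of peak widths, RKO over MiaPaCa2 (y axis), at the 2503 loci with 1 peak in each list. Of the red points (rank better in MiaPaCa2) 102 of 112 lie below 0, and of the blue points (rank better in RKO) 116 of 130 lie above it.

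The largest width ratios belonged partly to the loci already described. The chromosome 21 locus had widths of 2788 bp in MiaPaCa2 and 361 bp in RKO, against 781 bp and 1314 bp for the strongest peaks of the WT and delta-Repeat clones. There were 3 WT and 2 delta-Repeat clone peaks under the single MiaPaCa2 peak, so the clones covered this place in pieces. Next came the chromosome 1 locus from 235097117 (990 and 201 bp). A locus on chromosome 14 from 105438102 to 105439136 had widths of 1035 and 229 bp, one on chromosome 1 from 98798502 to 98799624 had 1123 and 249 bp, and one on chromosome 9 from 6715735 to 6716649 had 915 and 205 bp. The chromosome 9 locus differed in width but hardly in rank (1834 and 1885). In the other direction, the chromosome 2 locus from 74667774 had 227 bp in MiaPaCa2 and 1636 bp in RKO. A locus on chromosome 17 from 48132808 to 48134576 had 253 and 1769 bp, one on chromosome 20 from 62167524 to 62168738 had 203 and 1207 bp, and one on chromosome 16 from 692410 to 693469 had 201 and 1060 bp. The fifth, on chromosome 11 from 613769 to 616019, had 427 and 2251 bp. Its fold was 9.60 in MiaPaCa2 (rank 887) and 51.1 in RKO (rank 12), with no WT clone peak and a delta-Repeat clone fold of 7.34. It was the strongest RKO peak among these 10 loci.

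A single peak of one line could meet several peaks of the other. At 110 joint loci (4.10%, 3.38 to 4.92) 1 MiaPaCa2 peak met several RKO peaks, and at 58 (2.16%, 1.64 to 2.78) 1 RKO peak met several MiaPaCa2 peaks. A further 13 loci held several peaks in both lists. When the RKO list was shortened to its 4804 peaks of highest −log10 q, called lists of equal length below, the counts were 59 and 60. That setting removes peaks of RKO only. With the stricter threshold on both lists the counts were 25 and 9. Why they differ was not tested. Split loci were wide ones. The single peak had a median width of 868 bp in MiaPaCa2 and 827.5 bp in RKO. Gaps between pieces were short, with medians of 96.5 bp between RKO pieces and 107 bp between MiaPaCa2 pieces, and the shortest were 52 and 53 bp. Joining peaks of a list less than 1 kb apart left 3 and 16 split loci.

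Splits into 3 pieces were seen at 3 loci. On chromosome 10 from 94049914 to 94051232, a MiaPaCa2 peak of 1319 bp (fold 13.1) met RKO pieces of 342, 310 and 242 bp with folds of 7.46, 5.68 and 6.72. On chromosome 1 from 154975247 to 154976261, a MiaPaCa2 peak of fold 8.80 met RKO pieces of folds 6.41, 4.54 and 5.06. On chromosome 2 from 159825459 to 159826493, the order was turned: an RKO peak of fold 8.25 met MiaPaCa2 pieces of folds 6.52, 5.69 and 5.06, and neither clone had a peak. At these 3 loci no piece stood far above the others.
At the strongest split loci, by contrast, 1 piece held most of the signal. On chromosome 8 from 144816139 to 144817153, a MiaPaCa2 peak of fold 55.3 met RKO pieces of folds 32.9 and 4.12. On chromosome 4 from 615707 to 617463, a MiaPaCa2 peak of fold 49.0 met pieces of folds 5.64 and 40.8, and on chromosome 19 from 42428369 to 42431135 one of fold 46.5 met pieces of folds 60.0 and 7.38.
The same was seen for single RKO peaks on chromosome 22 from 45125932 to 45128019 (fold 73.4, MiaPaCa2 pieces of folds 5.0 and 53.3) and chromosome 3 from 11761024 to 11762350 (fold 34.8, pieces of folds 39.9 and 6.92). The remaining 2 named splits had pieces of similar fold. On chromosome 8 from 1325899 to 1326965, an RKO peak of fold 31.8 met MiaPaCa2 pieces of folds 12.5 and 15.8, and on chromosome 1 from 209943578 to 209944963 one of fold 22.5 met pieces of folds 5.26 and 6.41. The clones mostly held a single peak where they held any. Under the 110 single MiaPaCa2 peaks, the WT clone had no peak at 47, 1 peak at 55 and several at 8, and the delta-Repeat clone had none at 30, 1 at 63 and several at 17.

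Most peaks without a counterpart lay within 1 Mb of a peak of the other line, 93.7% of those of MiaPaCa2 and 95.7% of those of RKO. The nearest RKO peak was a median of 78.2 kb from the 2048 MiaPaCa2 peaks without a counterpart, and the nearest MiaPaCa2 peak a median of 57.7 kb from the 4383 RKO peaks. Within 1 kb there was one for 11.2% (9.89 to 12.7) and 10.8% (9.93 to 11.8) of them, and within 100 kb for 55.2% (53.0 to 57.3) and 61.0% (59.5 to 62.4). More than 1 Mb from any peak of the other line were 130 MiaPaCa2 and 189 RKO peaks, with median folds of 5.75 and 5.82. The most remote MiaPaCa2 peak was on chromosome X from 30907701 to 30907980, 6425 kb from an RKO peak. The most remote RKO peak was on chromosome 4 from 16227426 to 16227629, 8043 kb from a MiaPaCa2 peak. Both were weak, with folds of 5.38 and 6.30.

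In the outer 5 Mb of the chromosomes lay 24.0% (22.4 to 25.7) of the joint loci and 24.0% (22.7 to 25.3) of the RKO peaks without a counterpart, against 14.8% (13.3 to 16.5) of the MiaPaCa2 peaks without a counterpart. With lists of equal length, the shares without a counterpart were 24.4% for RKO and 16.2% for MiaPaCa2, and with the stricter threshold 25.2% and 20.0%. Whether this exceeds the spread between libraries of a line was not tested. Loci that had moved by at least 50% lay there as often in both directions within counting error, at 22.8% (15.5 to 31.6) for MiaPaCa2 and 20.5% (13.9 to 28.3) for RKO.

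The genome was next divided into windows of 1 Mb from the first base of each chromosome. Of the 1815 windows with a ZEB1 peak summit of either line, 1357 held peaks of both. MiaPaCa2 peaks alone were found in 185 windows (10.2%) and RKO peaks alone in 273 (15.0%). With lists of equal length, which removes peaks of RKO only, the numbers turned, to 291 windows of MiaPaCa2 alone and 197 of RKO alone. With the stricter threshold on both lists they were 180 and 332. The reason for the difference was not tested. With the lists as deposited, most of these windows held a single peak (119 and 158 windows), and 30 and 63 held 3 or more. Clone peaks, which had no part in defining the windows, were in 97 of the 185 MiaPaCa2 windows (52.4%) and in 28 of the 273 RKO windows (10.3%). Of the 1357 windows with peaks of both lines, 1066 (78.6%) held one, so both shares lay below that. Among windows with 3 or more peaks, a clone peak was in 24 of 30 MiaPaCa2 windows (80.0%, 61.4 to 92.3) and in 5 of 63 RKO windows (7.94%, 2.63 to 17.6). Chromosome 8 had the largest share of RKO windows, 29 of 87 (33.3%), against 6 of MiaPaCa2, and with equal lists it still had 23 of 81 (28.4%) against 10. Chromosomes 2, 5, 6 and 18 leaned to MiaPaCa2, with 13.2%, 16.8%, 17.4% and 20.0% of windows of MiaPaCa2 alone and 7.28%, 7.92%, 7.83% and 8.89% of RKO alone. RKO had the higher share on 16 of 23 chromosomes with the lists as deposited, and on 9 of 23 with lists of equal length.

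**Figure D4:**
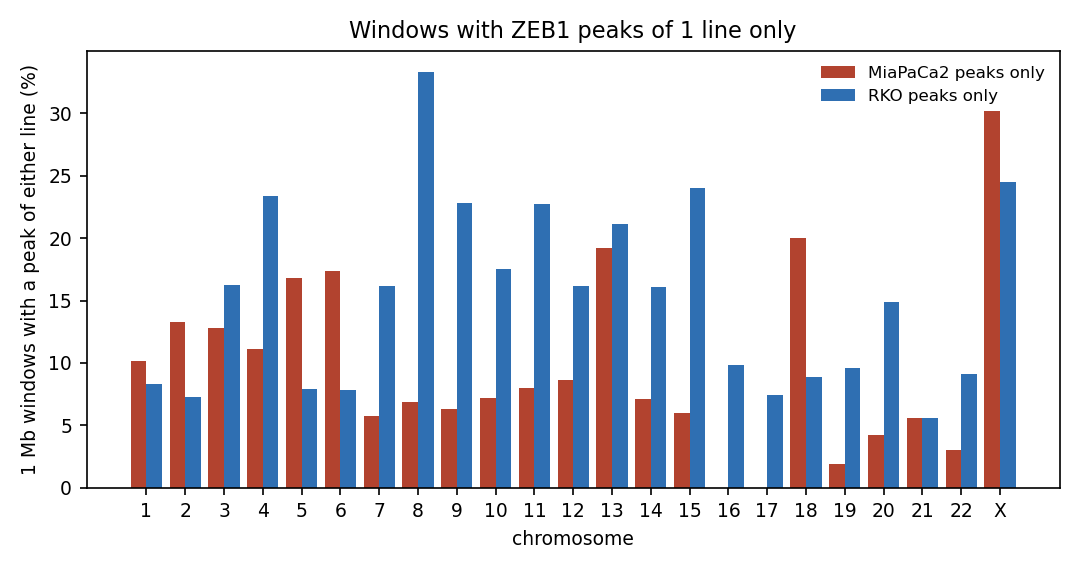
Share of 1 Mb windows with a ZEB1 peak of either line (y axis, %) that held peaks of MiaPaCa2 only (red) or RKO only (blue), by chromosome (x axis), with the lists as deposited. The RKO share is highest on chromosome 8 (33.3%), and the MiaPaCa2 share is highest on chromosome X (30.2%), where the RKO share is 24.5%.

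The fullest window of MiaPaCa2 alone lay on chromosome 3 from 189000001 to 190000000. It held 23 MiaPaCa2 peaks, 6 WT clone peaks, 5 delta-Repeat clone peaks and no RKO peak. The 23 peaks spanned 832 kb and were of modest strength, with a median fold of 5.65. The strongest, from 189172904 to 189173788, had a fold of 11.9 and ranked 647 of the MiaPaCa2 list. The nearest RKO peaks ended at 186524732 and began at 192634429, so 6110 kb held no RKO peak. This window remained the fullest of MiaPaCa2 alone with the stricter threshold (8 peaks) and with lists of equal length (23).
Next were chromosome 20 from 52000001 to 53000000, with 12 MiaPaCa2, 2 WT clone and 4 delta-Repeat clone peaks, and chromosome 5 from 57000001 to 58000000, with 10, 3 and 5. A window on chromosome 7 from 47000001 to 48000000 held 8, 1 and 3, and the strongest peak of these 5 windows, from 47826603 to 47827315 with a fold of 21.6. The fifth, on chromosome 3 from 134000001 to 135000000, held 5 MiaPaCa2 peaks and no clone peak. In the first 4 windows, then, the clones had ZEB1 peaks as well.

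With the lists as deposited, the fullest window of RKO alone held fewer peaks than the fullest of MiaPaCa2 alone, 11 against 23. In total, the 273 windows of RKO alone held 507 peaks and the 185 of MiaPaCa2 alone held 333. Of these, 14 and 5 windows held 5 or more. The fullest of RKO alone, on chromosome 8 from 124000001 to 125000000, held its 11 RKO peaks over 727 kb with a median fold of 5.03, and 1 delta-Repeat clone peak. It stayed the fullest with lists of equal length (8 peaks) but under no other setting. With the stricter threshold a window on chromosome 12 from 120000001 to 121000000 came first, with 8 peaks. Windows shifted by 500 kb put chromosome 18 from 33500001 first (8 peaks). At 500 kb it was chromosome 7 from 150500001 (10 peaks), and at 2 Mb chromosome 8 from 102000001 (10 peaks). Chromosome 10 from 112000001 to 113000000, chromosome 17 from 45000001 to 46000000 and chromosome 4 from 41000001 to 42000000 held 7 RKO peaks each, and the first Mb of chromosome 17 held 6. The clones had no peak in these last 4 windows. All 5 held CTCF peaks of MiaPaCa2, between 10 and 23.

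CTCF peaks of MiaPaCa2 were counted in the same windows. Each of the 185 windows of MiaPaCa2 alone held at least 1 CTCF peak, with a median of 10. Of the 273 windows of RKO alone, with a median of 9, 6 held none. The 1357 windows with peaks of both lines had a median of 15, and 4 held none. Rows of neighbouring windows of RKO alone reached 3 windows at 3 places. Those on chromosome 10 from 26000001 to 29000000 and on chromosome 8 from 75000001 to 78000000 held 31 and 12 CTCF peaks and 4 RKO peaks each. The row on chromosome 9 from 20000001 to 23000000 accounts for 3 of the 6 windows without CTCF. It held 9 RKO ZEB1 peaks and no peak of MiaPaCa2, of either clone or of CTCF. The MiaPaCa2 CTCF list had no peak on chromosome 9 between 19926355 and 26326518, a stretch of 6400 kb, and 5 stretches between neighbouring CTCF peaks of the genome were longer. The 9 RKO peaks had folds from 3.86 to 8.35, the strongest from 21684706 to 21685095. Next among the stretches of over 200 kb without CTCF and without a MiaPaCa2 ZEB1 peak was one of 272.5 kb on chromosome 1 with 5 RKO peaks, far more for its length. A much shorter stretch without CTCF, of 570 kb on chromosome 5 from 57185816 to 57756074, held 10 MiaPaCa2 ZEB1 peaks. The chromosome 9 stretch was singled out after its values were seen. MiaPaCa2 is known for a homozygous deletion of the tumour suppressor gene CDKN2A on chromosome 9. How far that deletion reaches into these windows was not tested, since neither reads nor an hg19 annotation were used here.

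**Figure D5:**
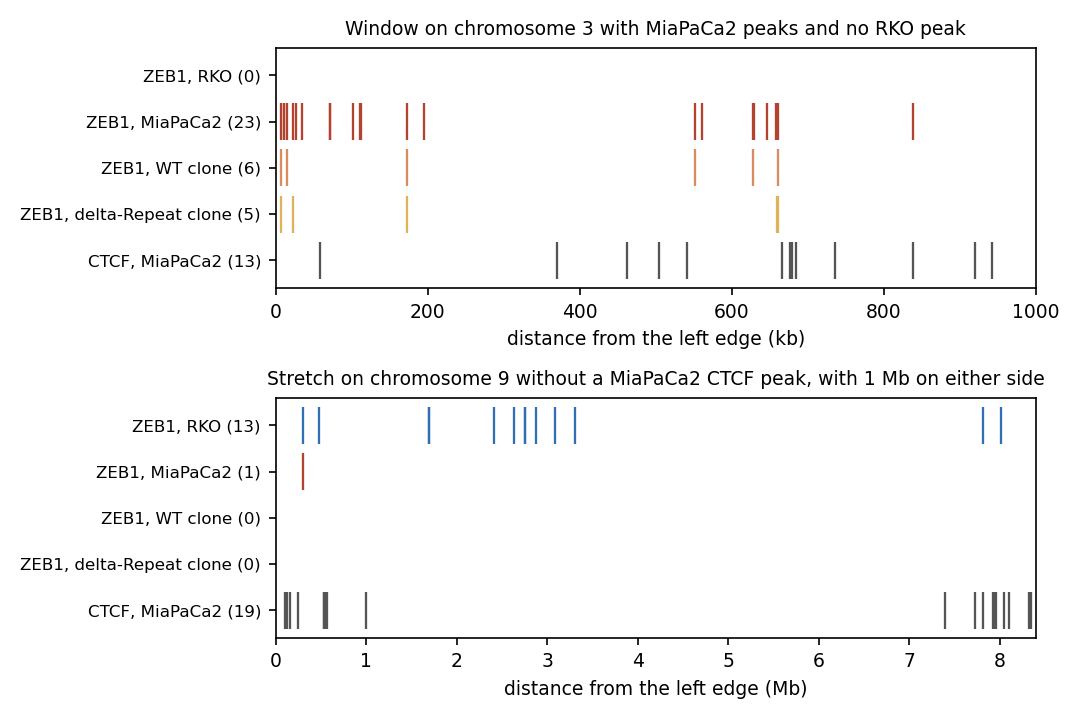
Peak summits of the 5 lists, 1 tick a peak with the number of peaks in brackets, in the chromosome 3 window (upper panel, x axis in kb from its left edge) and across the chromosome 9 stretch with 1 Mb on either side (lower panel, x axis in Mb). The upper panel has 23 MiaPaCa2 ticks and no RKO tick, and in the lower panel the 9 RKO peaks lie in a stretch without a tick of any other list.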

How the data were processed

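Per the submitters' processing notes, the tools were MACS2 2.1.0.20150731, Bowtie2 2.2.6 and SAMtools, and the builds GRCh37 and hg19. Controls, filters and any pooling of libraries are not given in the sources used here. As deposited by the authors, the fold is a linear ratio and each p-value or q-value is a −log10 value. The authors' score column was not used. Of the 9 samples, 4 are input DNA and were not analysed here.

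Overlaps, ranks and windows were computed with Python 3.11.15, numpy 2.4.6, pandas 2.3.3 and scipy 1.17.1, and figures with matplotlib 3.10.9, after tests on simulated lists. A window holds the peaks whose summit lies in it. The end of a chromosome was the largest peak end over the 5 lists, and short-arm ends without a peak (chromosomes 13, 14, 15, 21, 22 and Y) were left out.

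Named by rule were the 10 loci of largest rank change and the 5 of largest width ratio in each direction, the 5 peaks split most, the 5 fullest windows of each line and the 5 loci of best summed rank. Members, rules and lists were chosen with earlier results of these data known. Without an hg19 genome or annotation, loci were not tied to genes, no sequence is printed and the planned motif search was not run.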

Additional observations from a re-analysis of the deposited data

How the results depend on the processing

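No paired analysis was possible because only 1 library with a peak list stands for each group. The cause of the changes below was not tested, except where a setting removes peaks or overlaps by construction. The stricter threshold left 1205 joint loci, with 63.6% of rank class 1 of MiaPaCa2 shared; summits within 100 bp left 1774. Spearman's rho was 0.59 with 50% of both peaks and 0.55 with summits within 100 bp. With 50% of both peaks, 2.73% of loci ranked better in MiaPaCa2 and 3.62% in RKO, and the WT clone held 20.5% of the latter. With the stricter threshold the WT clone held 91.8% and 61.3% and the delta-Repeat clone 91.8% and 56.5% of the loci better in MiaPaCa2 and in RKO, and with summits within 100 bp the clones held 71.8% and 83.1% of those better in MiaPaCa2. RKO peaks were the wider at 42.8% with the stricter threshold. Splits numbered 3 and 16 with peaks joined, 25 and 9 with the stricter threshold, and 59 for single MiaPaCa2 peaks with lists of equal length, a setting chosen after seeing the data. Near chromosome ends lay 20.0% of the MiaPaCa2 peaks without a counterpart with the stricter threshold, also chosen after seeing the data. Windows of MiaPaCa2 alone and of RKO alone made up 13.3% and 21.4% at 500 kb, 7.03% and 10.3% at 2 Mb, 13.2% and 24.3% with the stricter threshold, and 16.7% and 11.3% with lists of equal length. With the stricter threshold a clone peak was in 82.2% and 37.7% of them. The fullest MiaPaCa2 window held 14 peaks when shifted by 500 kb or cut to 500 kb, and 8 with the stricter threshold. Within 10 kb of the other list lay 22.5% of MiaPaCa2 and 25.5% of RKO peaks without a counterpart, 12.4% and 10.9% with the stricter threshold, and 19.0% and 23.8% with lists of equal length. The other 51 planned values and 4 added values stayed within their interval or within 1.5 times the count. Of the 20 named rank changes, all 20 kept their direction with ranks by −log10 q and with 1 peak in each list, 11 were found and kept it with 50% of both peaks and 11 with summits within 100 bp, and none passed the stricter threshold. The motif alternative was not run. Unknown depth limits every statement on absent peaks.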

Other observations

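The share of joint loci that ranked better in MiaPaCa2 differed between chromosomes. Whether these differences exceed counting error over all chromosomes was not tested. On chromosome 21, 27 of 30 joint loci ranked better in MiaPaCa2 (90.0%, 73.5 to 97.9), with a median difference of 439 places, against 1341 of 2684 loci (50.0%) over the genome. At the 9 chromosome 21 loci held by both clones as well, ranked anew within the loci of all 4 lists, MiaPaCa2 stood better than RKO at 7, the WT clone at 6 and the delta-Repeat clone at 6. The same shares over all 914 loci of the 4 lists are not given here, so no conclusion on the clones was drawn from these 9. Chromosome 10 had 76 of 127 loci better in MiaPaCa2 (59.8%, 50.8 to 68.4), and chromosome 8 had 37 of 92 (40.2%, 30.1 to 51.0), whose interval includes the share over the genome. The chromosomes were picked after their values were seen, from 23.

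A joint locus on chromosome 1 from 121484595 to 121485417 ranked last, 2684, in both lines. Both lines listed it at a low fold, 1.84 in MiaPaCa2 and 1.62 in RKO. The clones had folds of 1.78 (WT) and 1.87 (delta-Repeat) there, and the CTCF list one of 2.07, so a peak with a low fold was listed there with both antibodies.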
